A study of Mus musculus with 18 samples.

Results

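Glypicans are proteoglycans held on the outer cell surface by a glycosylphosphatidylinositol (GPI) anchor, with heparan sulfate chains attached close to the membrane. They bind Wnt, Hedgehog, FGF, BMP and IGF ligands and can raise or lower signalling by them, depending on the ligand and on how the chains are sulfated. Cleavage of the anchor by the lipase Notum releases them from the cell. In the kidney they are best known from development, where loss of Gpc3 in mice gives dysplastic, cystic kidneys, and loss of its human counterpart causes the Simpson-Golabi-Behmel overgrowth syndrome. The 4 genes described here, Gpc1, Gpc3, Gpc4 and Gpc6, were taken by name from 24062 genes measured by RNA sequencing of mouse kidney cortex. Gpc3 was chosen by its RPKM values, because its level differs between the genotypes of the study, so its genotype difference is given as a description, with no test. All 4 passed the filter on low values (at least 1 RPKM, a read number corrected for transcript length and sequencing depth, in at least 3 of 18 libraries), which left 13624 genes tested. Gpc6 passed it through libraries from toxin-treated mice, since 2 of the 6 DMSO libraries reach 1 RPKM.

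The study used C57Bl/6 mice of 2 genotypes. Klf15PTKO mice (PTKO) lack the zinc finger transcription factor Klf15 in the proximal tubule, and Klf15fl/fl mice (fl/fl) carry the floxed alleles alone. Within each genotype 3 libraries came from vehicle-treated mice (DMSO), 3 from mice given aristolochic acid I for 2 weeks (AA 2wk), and 3 from mice given the same course and then left for 2 weeks of remodeling (AA 4wk). Aristolochic acid I is a plant toxin that injures the proximal tubule. Neither the Cre line nor the deleted exons could be taken from the labels, and no group has Cre with intact Klf15, so an effect of genotype and an effect of the Cre transgene cannot be told apart. The labels give the DMSO groups no week, and each serves as control for both toxin courses. Nothing states that the libraries of a group came from separate mice, so p-values measure only the spread between these samples, which may be technical.

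Klf15 itself was measured at 28.5 to 32.6 RPKM in PTKO DMSO cortex, against 53.0 to 65.5 RPKM in fl/fl DMSO cortex. It spanned 12.5 to 25.6 RPKM in PTKO AA 2wk libraries and 18.6 to 41.3 RPKM in fl/fl AA 2wk libraries, which overlap. In AA 4wk cortex it spanned 8.81 to 9.53 RPKM in PTKO and 11.6 to 18.8 RPKM in fl/fl. The summed level of 10 proximal tubule markers was 6343 to 6939 RPKM in PTKO DMSO and 6096 to 7093 RPKM in fl/fl DMSO libraries. Their sum was 851 to 1417 RPKM in PTKO AA 4wk and 1645 to 1944 RPKM in fl/fl AA 4wk libraries. Of all markers listed for 10 kidney cell types, Ren1, of juxtaglomerular cells, was at 0 in every library. The libraries held 10.98 to 21.9 M reads, as recovered from the steps of the RPKM values.

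Gpc3 and Gpc4 are neighbours on the X chromosome. In GENCODE M21 (GRCm38), Gpc3 (ENSMUSG00000055653.13) spans chrX:52272426-52613950 on the minus strand with up to 8 exons in a transcript. Gpc4 (ENSMUSG00000031119.4) lies on the same strand at chrX:52053021-52165252 with up to 9 exons, 107.2 kb from Gpc3. Gpc1 (ENSMUSG00000034220.7) is at chr1:92831645-92860779 on the plus strand with up to 9 exons, and Gpc6 (ENSMUSG00000058571.11) at chr14:116925315-117976544 on the plus strand with up to 10 exons, 400.1 kb from Gpc5. Because Klf15 belongs to a family of factors that bind GC and CACCC boxes, the 250 bases upstream of the annotated start of Gpc3 are shown, taken from RefSeq (GRCm38.p6, chrX:52613975-52614224, minus strand, 5′ to 3′). Capitals mark the letters CACGCCC and the GC box GGGCGG on either strand.

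Gpc3 upstream: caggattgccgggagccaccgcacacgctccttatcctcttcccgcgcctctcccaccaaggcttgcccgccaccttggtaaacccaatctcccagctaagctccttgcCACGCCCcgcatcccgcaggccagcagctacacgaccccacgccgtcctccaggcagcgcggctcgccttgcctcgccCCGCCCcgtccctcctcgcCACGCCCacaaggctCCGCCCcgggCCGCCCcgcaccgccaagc

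The window is 71.6% G and C. It holds 3 GC boxes (GGGCGG, written CCGCCC where it lies on the other strand), 2 copies of CACGCCC and 0 of CACCC, with both strands searched and overlapping matches counted. Among 32851 upstream windows of the same length, 32.7% hold GGGCGG, 7.5% hold CACGCCC and 52.0% hold CACCC. These matches describe the letters and are not evidence of binding. No upstream window is printed for Gpc1, Gpc4 or Gpc6.

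Gpc4 was the most abundant glypican in kidney cortex, per length, in every one of the 18 libraries. In PTKO DMSO cortex Gpc4 averaged 103.1 ± 9.46 RPKM and Gpc3 22.3 ± 5.48 RPKM, and in fl/fl DMSO cortex Gpc4 averaged 75.5 ± 10.2 RPKM and Gpc3 9.27 ± 1.18 RPKM (SD, n = 3 each). Gpc1 and Gpc6 averaged 4.83 ± 0.137 and 1.12 ± 0.263 RPKM in PTKO DMSO cortex and 4.199 ± 0.753 and 1.07 ± 0.722 RPKM in fl/fl DMSO cortex. The remaining family members were near the limit of detection without toxin. Gpc2 spanned 0.0324 to 0.0834 RPKM in PTKO DMSO and 0 to 0.206 RPKM in fl/fl DMSO libraries, and Gpc5 did not pass the filter.

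**Figure D1:**
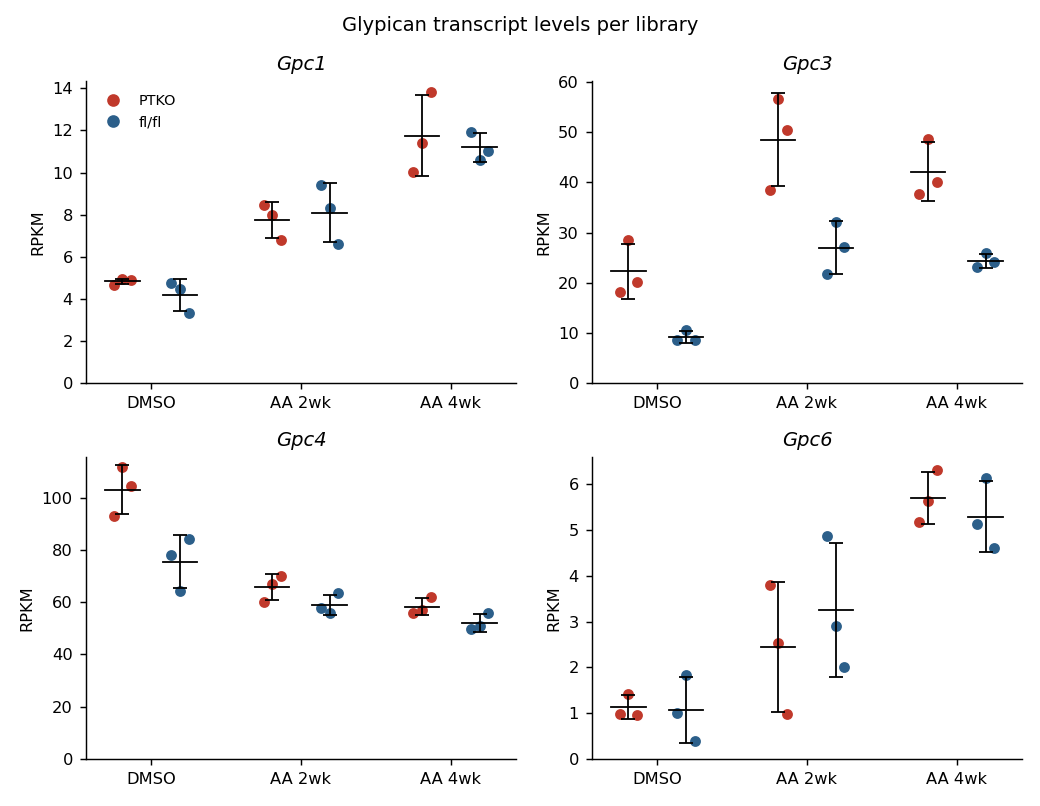
RPKM of Gpc1, Gpc3, Gpc4 and Gpc6 in each of 18 libraries, with PTKO in red left of fl/fl in blue within DMSO, AA 2wk and AA 4wk. Bars give the mean and SD over 3 libraries; Gpc3 groups of the 2 genotypes are apart in all 3 treatments, while those of Gpc1 and Gpc6 overlap.

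Gpc3 was higher in PTKO than in fl/fl cortex in each of the 3 treatments, and no library of the PTKO group fell within the range of its fl/fl group. Without toxin it measured 18.2, 28.5 and 20.2 RPKM in PTKO DMSO libraries, against 8.60, 10.6 and 8.58 RPKM in fl/fl DMSO libraries. After 2 weeks of toxin it measured 38.5, 56.6 and 50.4 RPKM in PTKO libraries, against 21.8, 32.2 and 27.2 RPKM in fl/fl libraries. After remodeling it measured 37.6, 48.7 and 40.1 RPKM in PTKO libraries, against 23.1, 25.9 and 24.1 RPKM in fl/fl libraries. The ratio of the PTKO mean to the fl/fl mean was thus 2.41 without toxin, 1.80 in AA 2wk cortex and 1.73 in AA 4wk cortex. On log2(RPKM + 1), the scale of all fits below, the differences were 1.16, 0.82 and 0.76, each with an SE of 0.18. Being apart in all 3 treatments with PTKO higher was met by 0.0367% of the tested genes, against 7.88%, 1.95% and 14.1% that meet it in DMSO, AA 2wk or AA 4wk cortex alone. These values chose Gpc3, and nothing is read from them about the family.

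The level of Gpc3 in PTKO cortex without toxin lay close to that of fl/fl cortex after toxin. Ordered by mean, Gpc3 stood at 48.5 ± 9.20 RPKM in PTKO AA 2wk, 42.2 ± 5.84 in PTKO AA 4wk, 27.0 ± 5.2 in fl/fl AA 2wk, 24.4 ± 1.43 in fl/fl AA 4wk, 22.3 ± 5.48 in PTKO DMSO and 9.27 ± 1.18 in fl/fl DMSO cortex. Neighbours in this order overlap except PTKO AA 4wk with fl/fl AA 2wk and PTKO DMSO with fl/fl DMSO.

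Gpc4, a partner of Wnt and FGF ligands, had separate genotype groups in DMSO cortex. It measured 92.9, 111.6 and 104.6 RPKM in PTKO DMSO libraries, against 78.0, 64.3 and 84.3 RPKM in fl/fl DMSO libraries. The groups do not overlap, a property shared by 7.88% of tested genes in this direction. The log2 difference of 0.45 (SE 0.10, 95% interval 0.23 to 0.67, 1.37-fold in mean RPKM) was not called after adjustment over all 13624 genes (limma, Benjamini-Hochberg adjusted p = 0.377), though it was called with sample quality weights (0.36, adjusted p = 0.00487). Of all tested genes, 0.0367% were called in this comparison in the fit without weights. That share does not apply to the weighted fit, for which none is given here. In AA 2wk cortex Gpc4 measured 60.1, 67.0 and 69.9 RPKM in PTKO libraries, against 57.6, 56.0 and 63.3 RPKM in fl/fl libraries, which overlap (0.15, SE 0.10, 95% interval -0.07 to 0.37, adjusted p = 0.870). In AA 4wk cortex it measured 55.9, 56.9 and 62.1 RPKM in PTKO libraries, against 49.6, 50.7 and 55.9 RPKM in fl/fl libraries (0.16, SE 0.10, 95% interval -0.06 to 0.38, adjusted p = 0.830). The lowest PTKO library and the highest fl/fl library are at nearly the same level there.

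No difference between genotypes was detected for Gpc1 or Gpc6 in any treatment. For Gpc1, the log2 difference was 0.18 in DMSO (95% interval -0.12 to 0.47), -0.05 in AA 2wk (-0.34 to 0.24) and 0.06 in AA 4wk cortex (-0.24 to 0.35), with adjusted p of 1, 0.981 and 0.939. For Gpc6 it was 0.09 (-0.57 to 0.75), -0.35 (-1.003 to 0.31) and 0.09 (-0.56 to 0.75), with adjusted p of 1, 0.911 and 0.958. Each Gpc1 difference has an SE of 0.14 and each Gpc6 difference an SE of 0.31, and the libraries hold 188 to 718 reads of Gpc1 and 42 to 736 of Gpc6. In AA 2wk and in AA 4wk cortex alike, 0.00734% of tested genes were called between genotypes in limma's test. Of Gpc1, Gpc4 and Gpc6, 0 were among them, and 0 had an unadjusted p under 0.05. Of all 13624 tested genes, 913 in AA 2wk and 823 in AA 4wk cortex had an unadjusted p under 0.05. The mean genotype effect over the treatments was 0.06 for Gpc1, 0.25 for Gpc4 (adjusted p = 0.266, and 0.0216 with quality weights) and -0.05 for Gpc6. In the fit without weights 0.0514% of all genes were called for this effect.

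Of the 10 nearest annotated genes on each side of Gpc3, Hs6st2 and Gpc4 alone passed the filter. Wider surroundings were compared between genotypes, 5 tested genes on each side, a choice made after their values were seen. Along the X chromosome these are 2610018G03Rik, Rap2c, Mbnl3, Hs6st2 and Gpc4 on the side of lower coordinates, and Ccdc160, Phf6, Hprt, Fam122b and Mospd1 on the other. Of these 10 genes Hprt alone was called between genotypes. Among all tested genes 0.0367%, 0.00734% and 0.00734% were called in DMSO, AA 2wk and AA 4wk cortex. Because the window was set with the values known, this count is a description and no test of the surroundings. Hprt, which encodes the purine salvage enzyme hypoxanthine phosphoribosyltransferase, lies 374.2 kb from Gpc3. It was lower in PTKO, at 17.3 ± 3.12 RPKM against 54.5 ± 6.67 RPKM in fl/fl DMSO cortex, at 7.49 ± 0.593 against 95.4 ± 9.65 RPKM in AA 2wk and at 6.25 ± 1.23 against 83.6 ± 5.98 RPKM in AA 4wk cortex (SD, n = 3 each). Ccdc160 and Phf6, between Gpc3 and Hprt at 177.2 and 298.3 kb from Gpc3, were not called. Hs6st2, which encodes a heparan sulfate 6-O-sulfotransferase 590.6 kb away on the other side, was not called either (0.37, -0.30 and 0.38 in DMSO, AA 2wk and AA 4wk, each with an SE of 0.36).

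**Figure D2:**
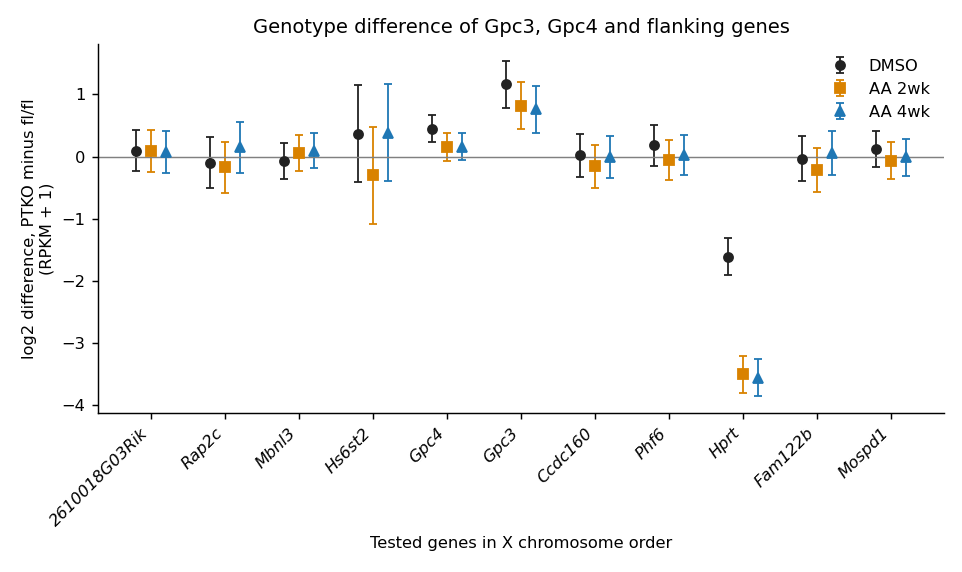
Log2 difference, PTKO minus fl/fl, of log2(RPKM + 1) for Gpc3, Gpc4 and flanking tested genes in X chromosome order, in DMSO, AA 2wk and AA 4wk cortex. Points are limma estimates and bars 95% intervals, and the distance between genes is not to scale. Gpc3 was chosen by this difference, so its points and bars are a description and no test. Hprt lies below 0 in all 3 treatments.

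After aristolochic acid Gpc1, Gpc3 and Gpc6 rose and Gpc4 fell, except that Gpc6 was not called in PTKO AA 2wk cortex. In PTKO cortex after 2 weeks, 3 of 4 members were called, 2 higher and 1 lower, where 60.2% of all tested genes were called (45.9% higher and 14.3% lower). In fl/fl cortex 4 of 4 were called, 3 higher and 1 lower, against 62.6% of all genes (50.4% higher and 12.2% lower). After remodeling, 4 of 4 were called in both genotypes, where 72.2% of all tested genes were called in PTKO (55.0% higher and 17.3% lower) and 66.3% in fl/fl cortex (51.9% higher and 14.3% lower). Being called is therefore the common state of a gene after the toxin, and the members' share is no finding by itself. Gpc6 would not have passed the filter on DMSO libraries alone, so its place among the members that rose is not independent of the filter. The median change of all tested genes was 0.29 and 0.40 in PTKO and 0.33 and 0.35 in fl/fl cortex after AA 2wk and AA 4wk, and the changes of the members are read beside it. Both courses share their DMSO libraries, so the values of the 2 courses stand side by side and are not independent. In cortex of mixed cells, fewer cells of a type and less RNA per cell cannot be told apart.

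Gpc3 rose in both genotypes. The log2 change after AA 2wk was 1.09 in PTKO (adjusted p = 0.000140) and 1.44 in fl/fl cortex (adjusted p = 1.52e-05, limma), each with an SE of 0.18. After AA 4wk it was 0.90 in PTKO (adjusted p = 0.000345) and 1.31 in fl/fl cortex (adjusted p = 1.97e-05). In mean RPKM the changes amount to 2.17-fold in PTKO and 2.91-fold in fl/fl after AA 2wk, and to 1.89-fold and 2.63-fold after AA 4wk. All 12 toxin libraries lay above the DMSO libraries of their own genotype, as did those of 46.9% and 60.5% of all genes in PTKO and of 51.0% and 55.6% in fl/fl cortex after AA 2wk and AA 4wk. All 6 groups entered the choice of Gpc3 by its genotype difference. Its toxin changes are therefore not independent of that choice, above all the larger change in fl/fl than in PTKO cortex. The difference of the toxin effect between genotypes, PTKO minus fl/fl, was -0.34 (SE 0.25) for AA 2wk and -0.41 (SE 0.25) for AA 4wk, given here with no test because it contains the genotype difference.

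**Figure D3:**
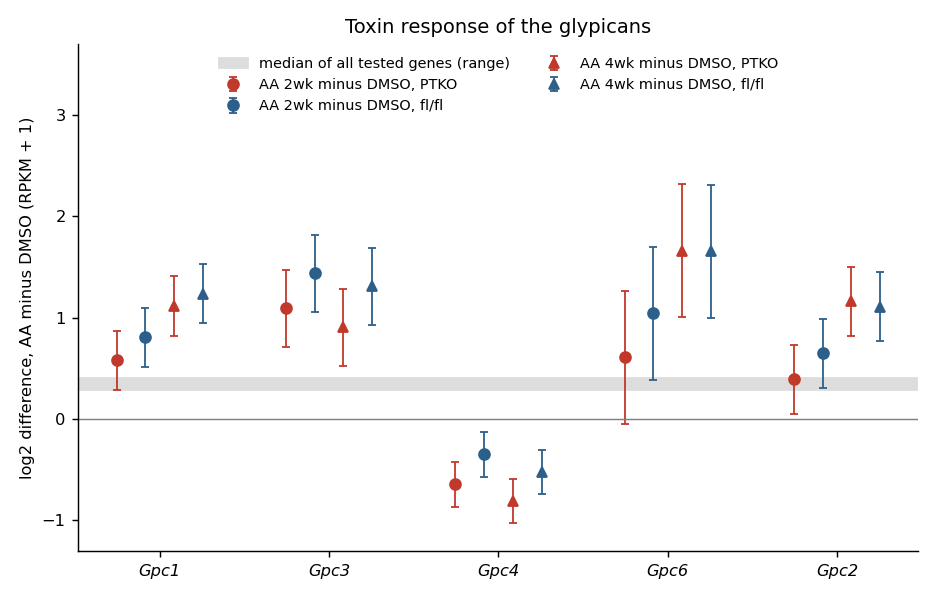
Log2 difference of log2(RPKM + 1), AA 2wk or AA 4wk minus DMSO, for the 4 glypicans and Gpc2 in PTKO (red) and fl/fl (blue) cortex. Points are limma estimates with 95% intervals and the grey band spans the medians of all tested genes, 0.29 to 0.40. Gpc4 alone of the 4 glypicans lies below 0. Gpc2 passed the filter through AA 4wk libraries alone, so its points and bars are a description and no test.

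Gpc4 was the only member that fell. Its log2 change after AA 2wk was -0.64 in PTKO (SE 0.10, adjusted p = 0.000139) and -0.34 in fl/fl cortex (SE 0.10, adjusted p = 0.00972). After AA 4wk the change was -0.81 in PTKO (adjusted p = 9.09e-06) and -0.52 in fl/fl cortex (adjusted p = 0.000487). The AA 4wk mean was 0.566 of the DMSO mean in PTKO and 0.689 of it in fl/fl cortex. All toxin libraries lay below the DMSO libraries of their genotype, as did those of 16.0% and 19.9% of all genes in PTKO and of 12.3% and 16.6% in fl/fl cortex after AA 2wk and AA 4wk. The call in fl/fl AA 2wk cortex was lost without the fl/fl DMSO library numbered 3 (-0.26, adjusted p = 0.0552) and in a fit of those 2 groups alone (adjusted p = 0.0556). The difference of the toxin effect between genotypes was -0.30 for AA 2wk (95% interval -0.61 to 0.02, adjusted p = 0.936) and -0.29 for AA 4wk (-0.60 to 0.03, adjusted p = 0.934), and neither was called. Among all tested genes 0.0147% were called for that interaction at AA 2wk and 0.00734% at AA 4wk.

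Gpc1, which binds FGF2 and other growth factors through its chains, stood higher at each step of the treatment series. It measured 4.67, 4.92 and 4.90 RPKM in PTKO DMSO, 8.44, 7.98 and 6.81 RPKM in PTKO AA 2wk and 10.04, 11.4 and 13.8 RPKM in PTKO AA 4wk libraries. In fl/fl libraries it measured 4.76, 4.49 and 3.34 RPKM in DMSO, 9.40, 8.30 and 6.60 RPKM in AA 2wk and 11.9, 10.6 and 11.0 RPKM in AA 4wk cortex. The 3 treatments do not overlap within either genotype; between AA 4wk and AA 2wk this held for 21.1% of all genes in PTKO and 10.4% in fl/fl cortex in this direction. The change after AA 2wk was 0.58 in PTKO (SE 0.14, adjusted p = 0.00243) and 0.81 in fl/fl cortex (SE 0.14, adjusted p = 0.000199), and after AA 4wk 1.12 in PTKO (adjusted p = 6.44e-06) and 1.24 in fl/fl cortex (adjusted p = 3.88e-06). Under quantile normalization, which removes the common rise of all genes, the PTKO AA 2wk change was 0.17 and not called (adjusted p = 0.215).

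Gpc6, the glypican mutated in human omodysplasia, rose by the largest factor of the 4 after AA 4wk. In mean RPKM the rise was 5.07-fold in PTKO and 4.93-fold in fl/fl cortex. Without the fl/fl DMSO library numbered 2, the highest of its group, the fl/fl factor was 7.62. Without the lowest, numbered 3, it would fall below 4.93. Over fits that left out 1 library, the fl/fl log2 change spanned 1.40 to 1.91. Gpc6 measured 0.976, 1.43 and 0.969 RPKM in PTKO DMSO, 3.80, 2.53 and 0.9745 RPKM in PTKO AA 2wk and 5.17, 5.64 and 6.30 RPKM in PTKO AA 4wk libraries. In fl/fl libraries it measured 0.997, 1.83 and 0.391 RPKM in DMSO, 4.86, 2.90 and 2.00 RPKM in AA 2wk and 5.13, 6.14 and 4.61 RPKM in AA 4wk cortex. The AA 4wk libraries lie above the DMSO libraries of their genotype, as do those of 60.5% of all genes in PTKO and 55.6% in fl/fl cortex. The AA 2wk libraries are spread widely, and the PTKO AA 2wk library numbered 3 is at the DMSO level. The log2 change after AA 4wk was 1.66 in PTKO (SE 0.31, adjusted p = 0.000225) and 1.65 in fl/fl cortex (SE 0.31, adjusted p = 0.000293). After AA 2wk it was 0.61 in PTKO cortex, not called (adjusted p = 0.10), and 1.04 in fl/fl cortex (adjusted p = 0.00893). Without the PTKO AA 2wk library numbered 3 the PTKO change was 0.96 (adjusted p = 0.00796), and with quality weights 1.02 (adjusted p = 0.000246). With no filter on low values, which Gpc6 passed through toxin libraries, the same calls were made (adjusted p = 0.0138 in fl/fl AA 2wk cortex). The fl/fl AA 2wk call was lost without the fl/fl AA 2wk library numbered 1 (0.78, adjusted p = 0.0527) or the fl/fl DMSO library numbered 3 (0.78, adjusted p = 0.0513), and under quantile normalization (0.42, adjusted p = 0.127).

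The summed level of 11 fibroblast and pericyte markers, such as Pdgfra, Pdgfrb, Dcn and Col1a1, followed the order of Gpc6 across libraries in some groups and not in others. Per library it was 106.2, 132.2 and 111.3 RPKM in PTKO DMSO, 476.4, 256.3 and 42.05 RPKM in PTKO AA 2wk and 586.4, 563.0 and 559.6 RPKM in PTKO AA 4wk cortex. In fl/fl cortex it was 99.44, 136.8 and 38.88 RPKM in DMSO, 533.1, 378.8 and 154.6 RPKM in AA 2wk and 440.9, 412.1 and 322.2 RPKM in AA 4wk libraries. The libraries lowest in these markers, the PTKO AA 2wk and fl/fl DMSO libraries numbered 3, hold the lowest Gpc6 level of fl/fl DMSO and the PTKO AA 2wk group. In both AA 2wk groups and in fl/fl DMSO cortex the libraries rank alike by markers and by Gpc6, while in PTKO AA 4wk cortex the ranks run opposite and in PTKO DMSO and fl/fl AA 4wk cortex they differ. Of the 11 markers 8 rose after AA 4wk in each genotype, and after AA 2wk 1 rose and 1 fell in PTKO while 7 rose in fl/fl cortex. Of all tested genes 55.0% and 51.9% rose after AA 4wk and 45.9% and 50.4% after AA 2wk in PTKO and fl/fl cortex. Postn, alone of the 11, lay under 1 RPKM in every DMSO library, and none of them was at 0 in all libraries of a group. The part of these cells in the Gpc6 result was not tested. The PTKO AA 2wk library numbered 3 held 50.4 RPKM of Gpc3, and it stood apart in other marker sums. Its podocyte markers summed to 438.6 RPKM, against 216.6 and 216.0 in the other PTKO AA 2wk libraries, its collecting duct markers to 964.7, against 469.4 and 645.7, and its proximal tubule markers to 3386, against 1519 and 1341. Without that library the Gpc3 change after AA 2wk in PTKO was 1.06 (adjusted p = 0.000403).

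**Figure D4:**
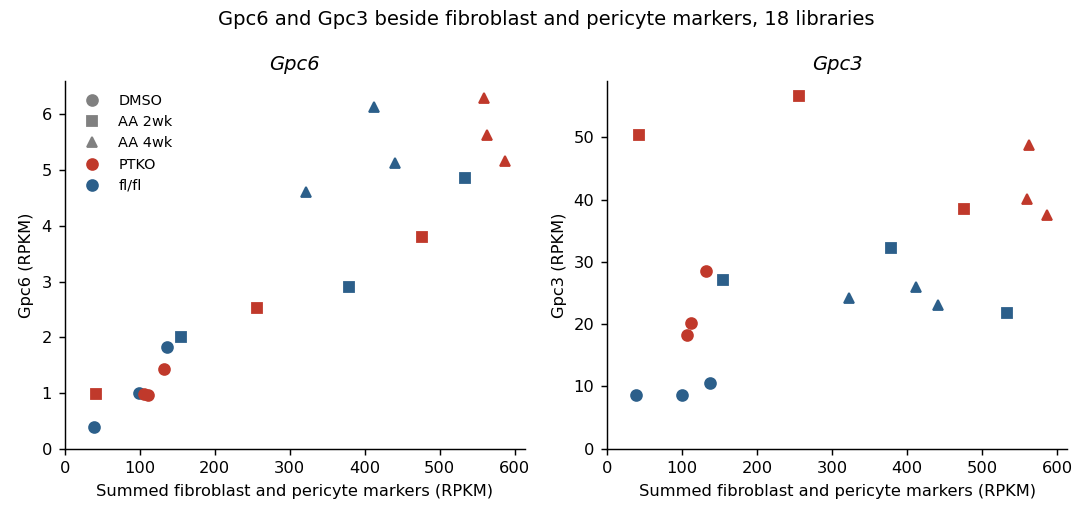
Gpc6 (left) and Gpc3 (right) in RPKM against the summed RPKM of 11 fibroblast and pericyte markers, for 18 libraries; colour gives genotype and shape treatment. Gpc6 is at or below 1.83 RPKM in the DMSO libraries and in the PTKO AA 2wk library with 42.05 RPKM of markers, and Gpc3 is at 50.4 RPKM in that last library, which stands apart in other cell type markers too.

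Between AA 2wk and AA 4wk few members were called. In PTKO cortex Gpc1 was called (0.54, SE 0.14, adjusted p = 0.0439), where 4.16% of all tested genes were. Gpc6 changed by 1.05 there (SE 0.31, adjusted p = 0.0639), and with the replicate number as a block it was called (adjusted p = 0.0269). Gpc3 (-0.19) and Gpc4 (-0.17) were not called. The Gpc1 call sat at the threshold and held in 7 of 18 fits that left out a library; among others it was lost without the PTKO AA 4wk library numbered 2 or 3 (adjusted p = 0.159 and 0.138) and without the PTKO AA 2wk library numbered 2 or 3 (adjusted p = 0.0658 and 0.125). In fl/fl cortex 0 of 4 were called, where 0.125% of all tested genes were, and the log2 changes were 0.43 for Gpc1, -0.13 for Gpc3, -0.18 for Gpc4 and 0.61 for Gpc6 (adjusted p from 0.230 to 0.787, limma). At an unadjusted p under 0.05 the count is 1, Gpc1, where 1672 of the 13624 tested genes lie under it.

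Gpc2, a glypican of developing nervous tissue, was very low in DMSO libraries and higher in all AA 4wk libraries. It measured 0.650, 0.499 and 0.0962 RPKM in PTKO AA 2wk and 1.09, 1.45 and 1.63 RPKM in PTKO AA 4wk libraries, and in fl/fl 0.927, 0.879 and 0.479 RPKM in AA 2wk and 1.51, 1.53 and 1.20 RPKM in AA 4wk libraries. These levels rest on 3 to 68 reads. The log2(RPKM + 1) difference from DMSO after AA 4wk was 1.16 in PTKO and 1.11 in fl/fl cortex, given with no test because Gpc2 reached 1 RPKM, and so passed the filter, in AA 4wk libraries alone. Gpc5, at most 0.259 RPKM in any library, did not pass the filter.

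The makeup of the summed glypican level differed between treatments. The 4 members added up to 131.3 ± 14.9 RPKM in PTKO DMSO, 124.3 ± 12.0 RPKM in PTKO AA 2wk and 117.9 ± 7.97 RPKM in PTKO AA 4wk cortex, and to 90.1 ± 7.93, 97.4 ± 3.22 and 92.9 ± 3.001 RPKM in the same treatments in fl/fl cortex. The share of Gpc4 was 78.6%, 52.9% and 49.5% in PTKO and 83.6%, 60.6% and 56.0% in fl/fl cortex in DMSO, AA 2wk and AA 4wk. The share of Gpc3 was 16.9%, 38.8% and 35.7% in PTKO and 10.4%, 27.7% and 26.2% in fl/fl cortex. Gpc3 reached 0.736 ± 0.103 of the Gpc4 level in PTKO AA 2wk and 0.215 ± 0.0353 in PTKO DMSO cortex, against 0.460 ± 0.102 in fl/fl AA 2wk and 0.126 ± 0.0346 in fl/fl DMSO cortex. The sums and shares contain Gpc3 and carry no test.

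**Figure D5:**
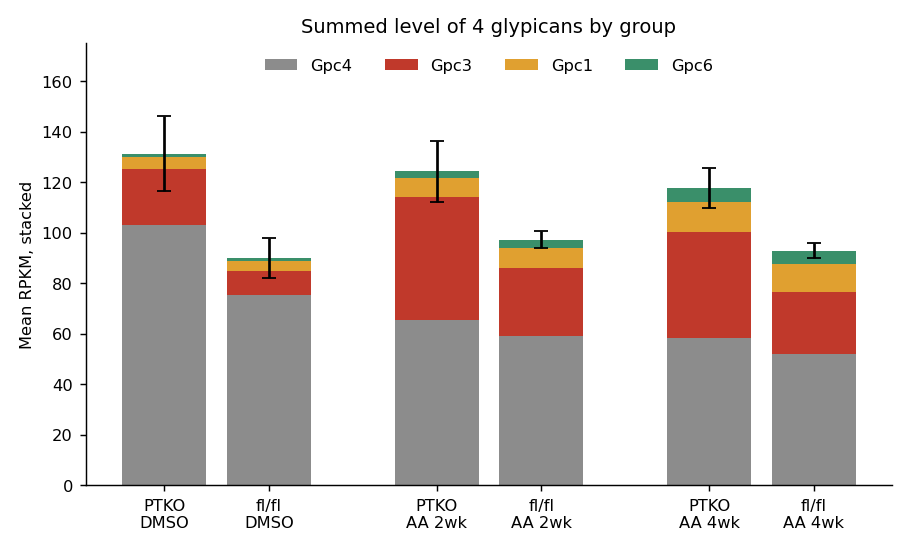
Mean RPKM of Gpc4, Gpc3, Gpc1 and Gpc6, stacked, in each group of 3 libraries, with PTKO left of fl/fl; error bars give the SD of the sum. The grey Gpc4 portion shrinks after the toxin, with 103.1 RPKM in PTKO DMSO and 58.3 RPKM in PTKO AA 4wk cortex, while the red Gpc3 portion grows.

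The genes that release, cut or edit glypicans moved after the toxin in both genotypes. Of 7 tested genes of heparan sulfate editing and glypican release, 4 rose and 3 fell in each genotype after AA 2wk, where 45.9% of all tested genes rose and 14.3% fell in PTKO and 50.4% rose and 12.2% fell in fl/fl cortex. Notum, the lipase that cuts the glypican anchor, fell to 1.85 RPKM in PTKO AA 2wk cortex, against 11.7 RPKM in PTKO DMSO, and to 3.71 RPKM in fl/fl AA 2wk, against 13.7 RPKM in fl/fl DMSO cortex. Its log2 change was -2.19 in PTKO (adjusted p = 1.29e-05) and -1.73 in fl/fl cortex (adjusted p = 8.34e-05), and after AA 4wk -2.40 in PTKO and -2.25 in fl/fl. Sulf2, an extracellular sulfatase that strips 6-O-sulfate from heparan sulfate, rose by 2.24 in PTKO (adjusted p = 1.52e-07) and 2.74 in fl/fl cortex (adjusted p = 2.44e-08). Sulf1, its paralogue, rose by 1.44 in PTKO and 1.20 in fl/fl cortex. Hpse, heparanase, which cuts the chains, rose by 1.39 in PTKO and 1.29 in fl/fl after AA 2wk and by 2.70 and 2.17 after AA 4wk, with at most 0.136 RPKM in any DMSO library. Hpse thus passed the filter through toxin libraries alone, and its place among the genes that rose is not independent of that. Gpld1, a GPI-specific phospholipase, fell by 0.21 in PTKO (adjusted p = 0.0489) and by 0.23 in fl/fl cortex (adjusted p = 0.0303). Furin, the convertase that cleaves glypican core proteins, fell by 0.53 in PTKO and by 0.26 in fl/fl cortex, and after AA 4wk its change in fl/fl, -0.17, was not called (adjusted p = 0.0944).

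Chain synthesis and the other heparan sulfate carriers gave changes in both directions. Of 24 tested genes of heparan sulfate chain synthesis, 11 rose and 4 fell in PTKO and 13 rose and 3 fell in fl/fl cortex after AA 2wk, with a median change of 0.20 in PTKO and 0.41 in fl/fl against 0.29 and 0.33 over all genes. The shares called, and those of the next lists, are read beside the 60.2% of all tested genes called in PTKO (45.9% higher) and 62.6% in fl/fl cortex (50.4% higher). Ext2, a subunit of the chain polymerase, rose by 0.39 in PTKO and 0.49 in fl/fl cortex, while its partner Ext1 changed by 0.26 in PTKO (not called, adjusted p = 0.0962) and rose by 0.55 in fl/fl cortex. Extl2 was not called in PTKO (0.14, adjusted p = 0.171) and rose in fl/fl cortex (0.60) after AA 2wk. Papss2, which makes the sulfate donor, fell by 1.52 in PTKO and by 1.54 in fl/fl, and Ndst1, an N-deacetylase and sulfotransferase, was called in neither. Extl3 rose by 0.44 in PTKO and 0.79 in fl/fl. Of 8 other heparan sulfate proteoglycans, 6 rose and 1 fell in PTKO and 5 rose and 1 fell in fl/fl cortex; the syndecan Sdc1 rose by 2.12 in PTKO and 2.01 in fl/fl cortex and collagen XVIII (Col18a1) by 1.40 and 1.99. Of 19 tested genes of GPI anchor attachment, 7 rose and 2 fell in PTKO and 8 rose and 1 fell in fl/fl cortex, with Pigq lower (-0.64 in PTKO and -0.52 in fl/fl) and Pigt (0.33 and 0.44) and Pgap2 (0.70 and 0.72) higher.

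The ligand pathways glypicans act on were counted in the same way after AA 2wk, beside the same 45.9% higher and 14.3% lower of all tested genes in PTKO and 50.4% higher and 12.2% lower in fl/fl cortex. Of the genes in these lists, 5 Wnt genes (Wnt4, Wnt9b, Axin2, Lef1 and Nkd2), 2 Hedgehog genes (Dhh and Scube1) and Fgf2 were under 1 RPKM in every DMSO library and passed the filter through toxin libraries alone. The same holds for 1276 of all 13624 tested genes. A rise of such a gene is not independent of the filter, and the counts below include these genes. Of 24 tested Wnt pathway genes, 10 rose and 3 fell in PTKO and 19 rose and 0 fell in fl/fl cortex. No interaction with genotype was called for any of them, where 0.0147% of all tested genes were called at AA 2wk and 0.00734% at AA 4wk. Wnt7b rose by 1.85 in PTKO and 2.77 in fl/fl, Wnt4 by 0.92 and 0.99, and the receptor Fzd6 by 0.41 and 0.74. Of 12 tested Hedgehog pathway genes, 5 rose and 1 fell in PTKO and 7 rose and 1 fell in fl/fl cortex, among them the ligand Dhh (1.68 in PTKO and 2.50 in fl/fl) and Scube3 (0.90 and 1.11). Of 16 IGF, FGF and BMP ligands and receptors, 5 rose and 4 fell in PTKO and 7 rose and 4 fell in fl/fl cortex. Fgfr4 fell by 0.84 in PTKO and by 1.11 in fl/fl, Fgf1 fell by 1.55 and by 0.99, and the BMP receptor Bmpr1a rose by 0.53 and 0.57. Between genotypes 0 genes of any of these lists were called in any treatment, where 0.0367%, 0.00734% and 0.00734% of all tested genes were called in DMSO, AA 2wk and AA 4wk cortex. At shares this low the 0 is no finding about the lists.

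Over the 18 libraries the members followed different genes. As a description, with libraries that share their treatment and hence most of their differences, Gpc6 was closest to Mfap2 (Pearson r = 0.992 of log2(RPKM + 1)), Mxra8 (0.990), Obsl1, B3gnt9 and Nkd1 (0.984), and Gpc1 to Chst14 (0.984), Antxr1, Nfix, Zfp362 and Pltp (0.979). Gpc3 was closest to Cdh1 (0.908), which encodes E-cadherin, followed by the integrin Itga6 (0.878), Parva, Marveld2 and Rad21. Gpc4 was closest to Htra1 (0.952), Slc35b4, Ttr, P4hb and Gnpat. Among the members Gpc1 and Gpc6 moved together (r = 0.941), Gpc4 ran against both (-0.784 with Gpc1 and -0.802 with Gpc6), and Gpc3 lay between (0.649 with Gpc1, 0.506 with Gpc6 and -0.322 with Gpc4). The r values of Gpc3 contain the genotype difference that chose it, above all once the mean of each treatment is removed. They then restate that choice in part: Gpc4 had r = 0.758, at rank 28 by size, and the genes with the strongest r to Gpc3 were Ccbl2 (-0.853), Hrg (-0.821), Hprt (-0.819), Actr1a (0.819) and Azgp1 (-0.818).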

How the data were processed

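RNA from kidney cortex was extracted with RNeasy columns, treated with DNase and made into TruSeq Stranded Total RNA libraries, per the labels' protocols. The authors deposited 1 table of RPKM values for 24062 genes in 18 libraries, 6 groups of 3, per the file headers. Per the submitters' processing notes, the tools were bcl2fastq 2.19 and kallisto and the build was mm10; how RPKM was computed, and whether strand was used, was not stated. For 17579 of 17579 genes above 0 in at least 6 libraries, whole reads were recovered from the value steps (tolerance 0.02 reads), giving 10.98 to 21.9 M reads per library.

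Genes reaching 1 RPKM in 3 or more libraries were fitted on log2(RPKM + 1) with limma 3.58.1 (statmod 1.5.0, R 4.3.3), 6 group means, trended robust moderation, two-sided tests and Benjamini-Hochberg adjustment over 13624 genes, with calls at 0.05. Fold changes on this scale understate the change of low genes. The smallest p of an exact permutation test with 3 libraries a group is 0.1. Gpc3 was left out of the calls between genotypes because its genotype difference chose it. The code of the fit was tried on simulated data with independent noise of capped spread. That trial cannot show how the fit handles libraries that deviate together or very noisy genes. The 4 members, the gene lists and the comparisons were chosen with earlier results of these data known. Named were the 4 members, the strongest 2 called genes of each list in fl/fl cortex, enzymes acting on glypicans, and the 5 genes most like each member. Alternatives were another pseudocount, no filter, other scalings, weights, moderation, voom on recovered reads, a replicate block, the compared groups alone and each library left out. Same-numbered libraries deviated together in all 3 pairs for PTKO and fl/fl AA 2wk (r over genes 0.431 to 0.663) and, weakly, for PTKO AA 4wk and AA 2wk (0.101 to 0.243). Between the genotypes r was 0.071 to 0.201 in DMSO and 0.057 to 0.222 in AA 4wk cortex. Over all pairs of groups 23 of 45 such correlations exceeded 0.1, and the lowest was -0.161. The sample titles do not state that equal numbers are pairs. The reported fit has no replicate block, so its p-values ignore any such pairing, and the block was run as an alternative.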

Additional observations from a re-analysis of the deposited data

Results flagged for a closer look

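Hprt, a neighbour of Gpc3 on the X chromosome, responded to the toxin in opposite directions in the genotypes. After AA 2wk its log2 change was -1.10 in PTKO and 0.80 in fl/fl cortex, and the difference of these effects was -1.90 (SE 0.20, limma adjusted p = 0.00108). After AA 4wk the changes were -1.34 in PTKO and 0.61 in fl/fl cortex, and the difference was -1.95 (SE 0.20, adjusted p = 0.000756). Of all tested genes 0.0147% were called for this difference at AA 2wk and 0.00734% at AA 4wk. All 6 PTKO toxin libraries lay below the PTKO DMSO libraries, as did those of 16.0% and 19.9% of all genes after AA 2wk and AA 4wk. All 6 fl/fl toxin libraries lay above the fl/fl DMSO libraries, as did those of 51.0% and 55.6% of all genes. Hprt came into view through a window around Gpc3 that was set after the values were seen. The cause of the opposite Hprt responses was not tested.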

How the results depend on the processing

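Of 28 alternatives, the calls on all 4 members after AA 4wk against DMSO held in each, in both genotypes, as did those on Gpc3 after AA 2wk. The sizes moved, in part because some alternatives change the scale. After AA 4wk the PTKO log2 change spanned 0.44 to 1.09 for Gpc3, 0.57 to 1.26 for Gpc1, 0.92 to 2.38 for Gpc6 and -1.28 to -0.74 for Gpc4. In fl/fl cortex it spanned 0.91 to 1.40 for Gpc3, 0.71 to 1.42 for Gpc1, 0.97 to 2.51 for Gpc6 and -0.95 to -0.44 for Gpc4. Gpc3 was left out of all counts between genotypes. Of Gpc1, Gpc4 and Gpc6, 0 were called between PTKO and fl/fl in DMSO cortex and 0 for the mean genotype effect over treatments, each 1 (Gpc4) with quality weights; every other alternative gave 0 there, and all gave 0 in AA 2wk and AA 4wk cortex. For AA 4wk against AA 2wk in PTKO cortex, 1 as reported, it was 0 with a pseudocount of 0.1, median-of-ratios scaling, voom, the compared groups alone and without both AA 2wk libraries numbered 3, and 2 with quantile normalization and the replicate block; leave-outs gave 0 to 2. For AA 2wk against DMSO in PTKO cortex, 3 as reported, it was 4 with quality weights and without both AA 2wk libraries numbered 3, and 2 with quantile normalization; leave-outs gave 3 to 4. In fl/fl cortex, 4 as reported, it was 3 with quantile normalization and with the compared groups alone, and leave-outs gave 2 to 4, the 2 without the DMSO library numbered 3. The replicate block changed no other call. Signs turned in uncalled log2 differences. Gpc1 between genotypes in AA 2wk gave 0.0065 under median-of-ratios scaling and 0.0320 under quantile normalization, and -0.1743 to 0.0519 over leave-outs. Its mean genotype effect gave -0.0205 with quality weights. Gpc3 from AA 2wk to AA 4wk in fl/fl gave 0.0271 with quality weights and -0.2697 to 0.0017 over leave-outs. Gpc6 in the AA 4wk interaction gave -0.1411 with a pseudocount of 0.1, -0.0548 under median-of-ratios scaling, -0.0426 under quantile normalization, -0.1309 with voom and -0.2478 to 0.2643 over leave-outs. Leave-outs also spanned -0.1696 to 0.3425 for Gpc6 in DMSO, -0.6336 to 0.0078 for Gpc6 in AA 2wk, -0.0577 to 0.155 for Gpc1 in AA 4wk, -0.1503 to 0.0635 for the mean genotype effect of Gpc6 and -0.234 to 0.0042 for the AA 4wk interaction of Gpc1. The cause was not tested. Gpc6 rests on 42 to 736 reads per library and Gpc1 on 188 to 718; the part of depth in their spread was not tested.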
